A study of Malus domestica with 36 samples.

Results

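The 100 genes described here have their highest level in one group of stored apple peel: RA storage with the tag SL at the second time, T2. They were chosen from 57423 genes by their levels alone. Of these, 16504 had a group mean of at least 10 FPKM (a level corrected for gene length and library size) in at least 1 of 12 groups. For each of them the mean of log2(FPKM + 1) in T2 RA with SL was set against the highest mean among the other 11 groups. This difference is called the lead below. The 100 genes with the largest lead were taken after the rule had set aside 5 genes: CHS1 (LOC103421794), CHS-2 (LOC103443512), DFR (LOC103450464), MdF3H (LOC103436139) and F3H (LOC103400025). Because T2 RA with SL chose the genes, every value that sets this group against another is a description, and no test was made of it.

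By name, 3 of the 100 genes belong to the flavonoid pathway, as do the 5 genes set aside. Chalcone synthase opens this pathway, flavanone 3-hydroxylase and dihydroflavonol reductase carry it on, and anthocyanidin synthase makes the coloured anthocyanidins. Anthocyanidin reductase and leucoanthocyanidin reductase turn its products toward flavan-3-ols and proanthocyanidins, the colourless, astringent polymers that are abundant in apple peel. R2R3 MYB transcription factors are known as regulators of its genes in many plants.

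The samples were peel of 'Granny Smith', a green apple that is prone to superficial scald, which browns the skin during cold storage. All 36 libraries came from this cultivar, 3 biological replicates in each of 12 groups. The groups combine 3 storage regimes with 2 times, T2 and T1, and with or without the tag SL. The regimes are DCA_CF, at under 1% oxygen, ULO, at 1% oxygen, and RA, an abbreviation that the labels leave unexpanded. The labels do not say what SL stands for, how long T1 and T2 lasted, or how many fruits made up a library, so the p-values below measure only the spread between these samples.

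Values per library summed to between 689868 and 790211 FPKM, with 744641 to 754529 in the 3 libraries of T2 RA with SL. Between 33512 and 37276 genes had a value above 0, and read totals are unknown. The 3 libraries of T2 RA with SL correlated with each other at 0.964 or more over genes, and the closest library of another group, 1 of T1 RA with SL, correlated with 1 of them at 0.946. Genes known from ripe apple fruit were present in all libraries: AFS1, the farnesene synthase of the peel, at 247 to 1371 FPKM, ACO1, an ACC oxidase of ethylene synthesis, at 4402 to 19269 FPKM, and the allergen gene MALD1 (LOC103425638) at 6590 to 13873 FPKM. Genes that would mark seed, flower or leaf were not matched by name.

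Leads ran from 6.35 to 0.66, with a median of 1.19 on the log2 scale. A lead of at least 4 was reached by 10 genes, of at least 2 by 24 and of at least 1 by 58. Mean levels in T2 RA with SL ran from 10.3 to 679 FPKM, with a median of 35.4, and the median coefficient of variation between its 3 libraries was 3.95%. In 94 of the 100 genes all 3 libraries of T2 RA with SL lay above all 33 other libraries. The choice by lead favours such a separation, and its share over all genes was not counted. The last genes taken were LOC103419955, LOC103412103 and LOC103413851, each with a lead of 0.66. The first genes left out were LOC103429291, LOC108173167 and LOC103401158, each with a lead of 0.65, so the end of the list is not a natural border.

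**Figure D1:**
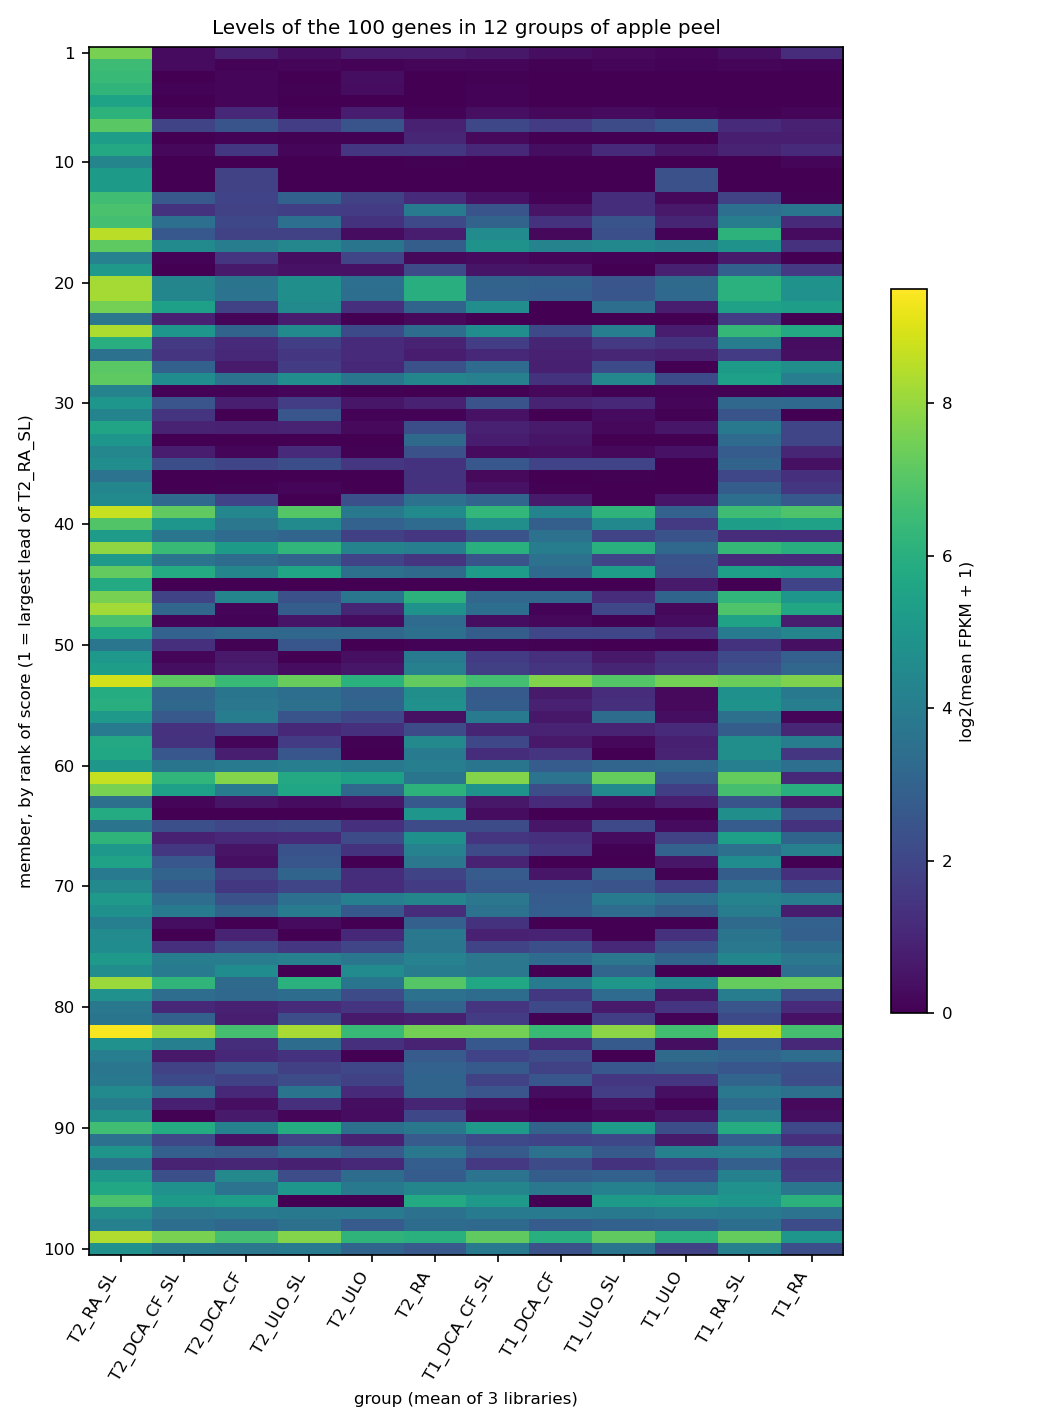
Each row is 1 of the 100 genes, ordered by lead, and each column is 1 of the 12 groups; colour gives log2(mean FPKM + 1) over 3 libraries. T2 RA with SL is the brightest column in every row, the first 12 rows are dark nearly everywhere else, and farther down T1 RA with SL is often the next brightest, as it is for 46 genes.

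The summed level of the 100 genes was 8868, 8873 and 8816 FPKM in the libraries of T2 RA with SL. The next group, T1 RA with SL, had a sum of 2821 ± 54.7 FPKM (SD, n = 3). T2 DCA_CF with SL had 1704 ± 96.3, T2 ULO with SL 1636 ± 31.0 and T2 RA without SL 1535 ± 5.78 FPKM. The lowest sums were 652 ± 69.9 FPKM in T1 DCA_CF, 650 ± 43.5 FPKM in T1 ULO and 620 ± 42.4 FPKM in T2 ULO, all without SL. In bulk peel, fewer cells that express a gene and less RNA per cell cannot be told apart. The next highest group was T1 RA with SL for 46 genes, T2 RA for 11 and T1 RA for 9. RA groups thus came next for 66 genes and low oxygen groups for 34. The same shares among other genes were not counted, so a lean particular to these genes is not shown. Per gene, the median difference of T2 RA with SL was smallest against T1 RA with SL, at 1.63 on the log2 scale, and largest against T1 ULO, at 4.15, while the median over all genes lay between -0.20 and 0.04 in these differences.

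Of the 100 genes, 9 carry a name in the table or in the RefSeq gene table, and they fall into 3 groups: flavonoid enzymes, MYB factors, and 2 lipoxygenases with 1 MADS-box factor. The other 91 are bare identifiers. RefSeq lists 76 of the 100, 70 as protein coding and 6 as long noncoding RNA.

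Among the enzymes, MdCHS (LOC103443513), a chalcone synthase, had the largest lead. MdCHS stood at 179, 186 and 190 FPKM in T2 RA with SL, and no library of another group exceeded 1.56 FPKM. ANS (LOC103437326), the anthocyanidin synthase, stood at 85.5, 86.7 and 85.6 FPKM in T2 RA with SL, against at most 0.331 FPKM in any other library. Both genes were thus near absence in 33 libraries and well expressed in 3.

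ANR2a (LOC103434638, also listed under ANR2b), an anthocyanidin reductase of the branch to epicatechin and proanthocyanidins, had another pattern. Its level was 137, 142 and 146 FPKM in T2 RA with SL. In T1 RA with SL it was 39.9, 41.8 and 38.7 FPKM, and in T1 RA without SL 16.2, 14.3 and 16.9 FPKM. No library of one of these groups overlapped with another, and ANR2a was measurable in all 12 groups.

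The 5 flavonoid genes that the rule set aside were highest in T2 RA with SL too. CHS1 averaged 617 ± 13.9 FPKM in T2 RA with SL, against 6.39 ± 0.337 in the next group, T2 ULO (SD, n = 3 each). CHS-2 averaged 138 ± 3.58 FPKM, against 13.7 ± 0.751 in T2 RA. DFR averaged 185 ± 6.80 FPKM, against 22.3 ± 1.27 in T2 DCA_CF. The same group came next for the 2 flavanone 3-hydroxylases: MdF3H averaged 258 ± 4.23 FPKM in T2 RA with SL against 37.1 ± 1.04, and F3H 338 ± 5.15 against 69.2 ± 3.24.

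Of 15 genes of the flavonoid list, 3 are members, 5 were set aside by the rule and 7 are others. The list was chosen with the peak known, and the 8 members and genes set aside were picked for it. Among the 7 others, LAR2, a leucoanthocyanidin reductase, averaged 6.89 FPKM in T2 RA with SL and at most 0.137 FPKM elsewhere, and UFGT (LOC103440008), which adds glucose to anthocyanidins, averaged 3.47 and at most 0.0978 FPKM, both below the minimum of 10. UGT71A15 (LOC103441425), another glycosyltransferase of the list, averaged 150 FPKM in T2 RA with SL and nearly as much, 137 FPKM, in T1 RA. UGT88F1, FLS, LAR1 and UGT71K1 were highest in other groups. LAR1, also a leucoanthocyanidin reductase, averaged 8.30 FPKM in T2 RA with SL against 18.6 FPKM in T1 RA. UGT71K1 (LOC103447413) averaged 39.5 FPKM in T2 RA with SL against 67.4 FPKM in T1 RA. UGT88F1 (LOC103402192), which makes the dihydrochalcone phloridzin, averaged 116 FPKM in T2 RA with SL against 499 FPKM in T2 DCA_CF. FLS, the flavonol synthase, averaged 0.217 FPKM in T2 RA with SL against 10.7 FPKM in T2 RA without SL.

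The MYB list holds 28 genes that passed the filter on low values, 4 of which had their highest group mean in T2 RA with SL, and 3 of these are members. Members were chosen for this peak, and 5.47% of all genes that passed the filter had their highest group mean there. MYBPA1 (LOC103420697), whose grape counterpart is known to activate proanthocyanidin genes, stood at 91.3, 88.8 and 92.5 FPKM in T2 RA with SL and at no more than 0.300 FPKM in any other library. MYB9 stood at 40.8, 39.0 and 36.0 FPKM in T2 RA with SL, against 1.45, 0.530 and 1.08 FPKM in the next group, T2 RA. MYB11 stood at 17.3, 18.0 and 16.7 FPKM in T2 RA with SL, against 2.55, 2.96 and 3.43 FPKM in the next group, T2 ULO. In apple, MYB9 and MYB11 are known as regulators of anthocyanin and proanthocyanidin genes. Each of the 3 had its 3 libraries of T2 RA with SL far above all others, but the group that came next differed: T2 DCA_CF with SL for MYBPA1, at 0.200 FPKM, T2 RA for MYB9 and T2 ULO for MYB11.

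Lipoxygenases oxidise polyunsaturated fatty acids, the first step toward oxylipins and several fruit volatiles. LOX7a (LOC103433945) stood at 68.5, 72.7 and 74.4 FPKM in T2 RA with SL, at 40.3, 38.9 and 39.8 FPKM in T1 RA with SL and at 25.4, 27.2 and 27.1 FPKM in T2 RA. LOX7c (LOC103450936) stood at 23.8, 25.7 and 25.0 FPKM in T2 RA with SL and at 14.6, 14.7 and 15.5 FPKM in T1 RA with SL. Of 13 lipoxygenase genes that passed the filter, these 2 had their highest group mean in T2 RA with SL, and both were chosen for it. Among all genes that passed the filter the share was 5.47%. In low oxygen no library exceeded 3.98 FPKM for LOX7a or 0.906 FPKM for LOX7c. MADS20 (LOC103416871), a MADS-box transcription factor, stood at 22.9, 21.2 and 18.9 FPKM in T2 RA with SL and at 11.5, 11.6 and 10.8 FPKM in T1 RA with SL. For all 3 genes the libraries of T2 RA with SL lay above those of T1 RA with SL without overlap, and T1 RA with SL was the next highest group.

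**Figure D2:**
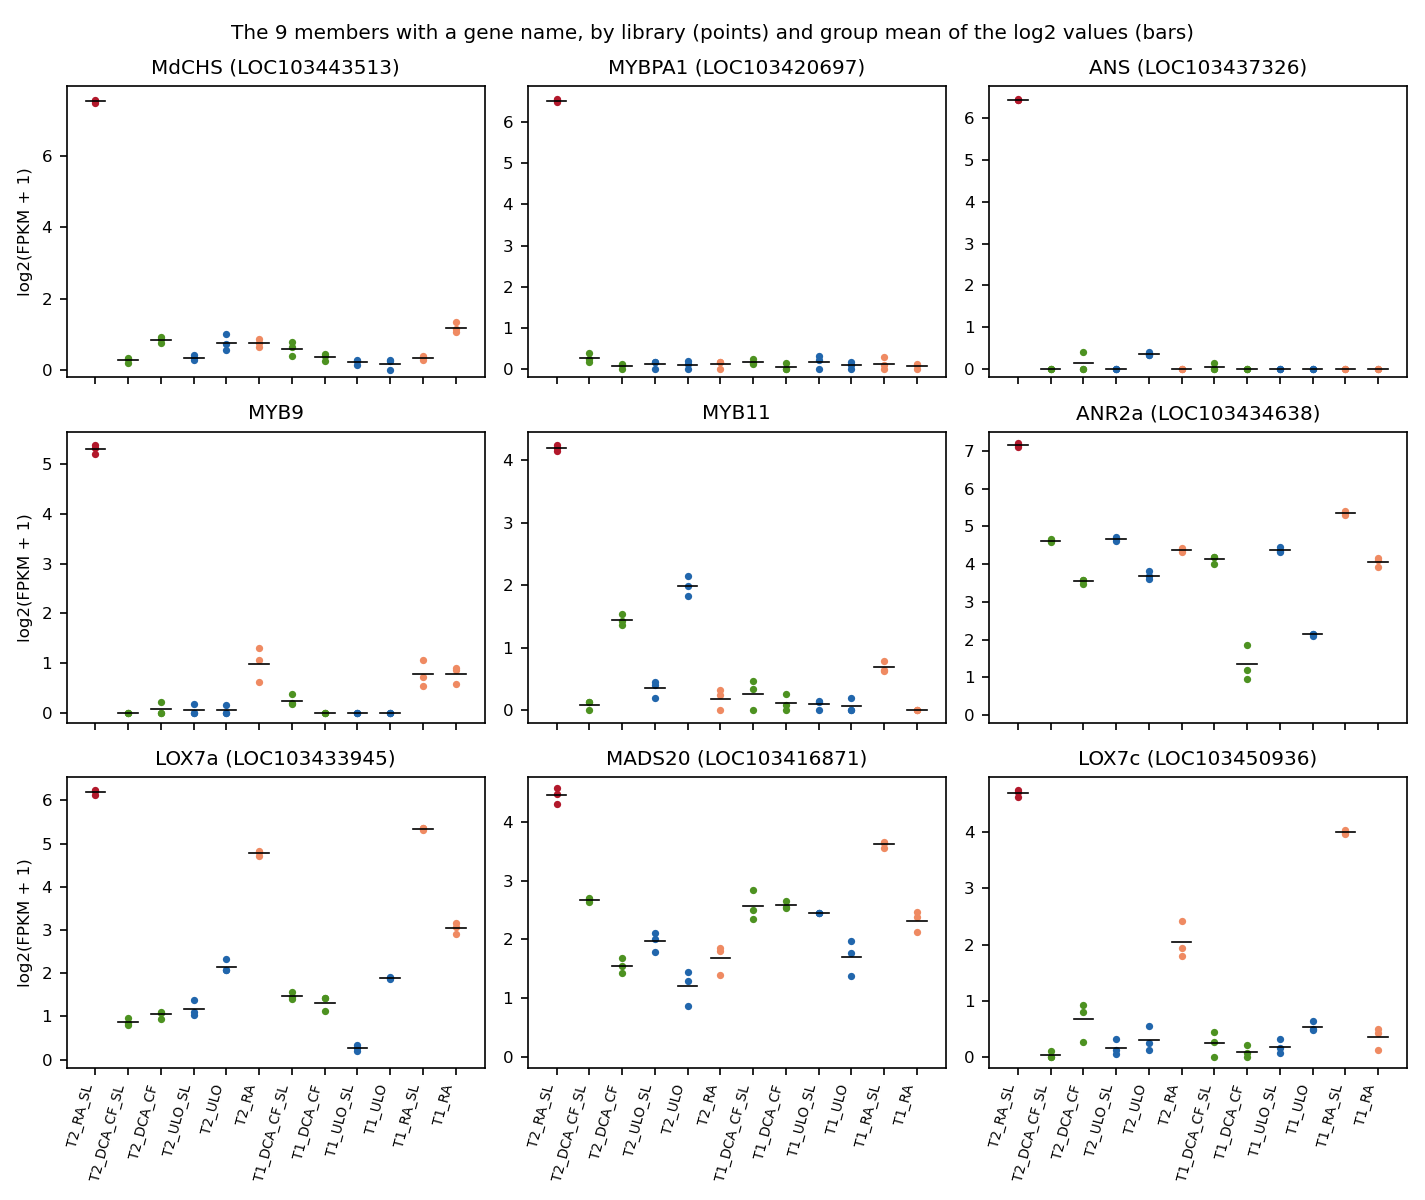
log2(FPKM + 1) of the 9 named genes in each library (points) and the mean of the 3 log2 values (bars), by group; the scale differs between panels. MdCHS, MYBPA1 and ANS sit near 0 outside T2 RA with SL, while ANR2a, LOX7a, LOX7c and MADS20 have T1 RA with SL as their next group.

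Among the 12 genes with the largest lead, 8 carry no name. LOC103420259 stood at 72.9, 74.5 and 73.9 FPKM in T2 RA with SL and at most at 0.273 FPKM in any other library. LOC103437325 stood at 44.2, 44.1 and 45.1 FPKM, with other libraries up to 0.255 FPKM. LOC103437327 stood at 73.8, 66.7 and 68.1 FPKM, with other libraries up to 1.21 FPKM. With MdCHS, MYBPA1 and ANS these are the 6 genes of largest lead, and none of the 6 had another group mean above 1.29 FPKM.

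LOC103432919 was higher outside the peak: it stood at 136, 130 and 133 FPKM in T2 RA with SL and reached 5.38 FPKM in a library of T1 ULO. LOC103455413 stood at 47.8, 54.1 and 54.7 FPKM, against 1.89, 2.21 and 1.62 FPKM in the next group, T2 DCA_CF. LOC103420366 stood at 17.3, 20.1 and 19.2 FPKM, with no other library above 0.201 FPKM. LOC103406362 and LOC103435578 had identical values in all 36 libraries, 39.4, 33.7 and 33.0 FPKM in T2 RA with SL, so they cannot be counted as separate measurements. In all, 10 of the 100 genes had no other group mean of 2 FPKM or more.

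The order of the other 11 groups was not used by the rule beyond keeping them below the peak, so it was tested in 16 comparisons that leave out T2 RA with SL. A linear model on log2(FPKM + 1) was fitted with limma to the 32923 genes that reached 1 FPKM in 3 or more libraries, and p-values were adjusted over all of them (Benjamini-Hochberg). A gene is called higher or lower at an adjusted p under 0.05, and values after ± are standard errors of the fit where a log2 fold change is given. The filter kept 99 of the 100 genes, 9 of which passed it only through the libraries of T2 RA with SL, and 90 passed it on the other 33 libraries alone. Counts over these 90, added after the data were seen, are given beside those over the 99. Every member had a group mean of at least 10 FPKM, and such genes were called more often than all genes in each comparison. They are named eligible genes below, and 16493 of them were tested. Values near 0 can also pass the test, and in each comparison between 0 and 11 of the calls were on genes under 1 FPKM in all groups compared.

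The SL response in RA was tested at T1. In T1 RA with SL against T1 RA, 64 of the 99 genes were higher and 9 lower, while 26.4% and 35.3% of all genes were higher and lower. Among eligible genes 35.4% were higher and 39.1% lower. Of the 90 genes measurable outside the peak group, 64 were higher and 8 lower, with a median log2 fold change of 1.21. The median log2 fold change over the 99 genes was 0.94, against -0.07 over all genes, and 47 genes were higher by at least 2-fold and none lower.

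LOC103432255 rose the most. It stood at 153, 148 and 157 FPKM with SL and at 1.21, 1.01 and 1.02 FPKM without (6.21 ± 0.0753, limma adjusted p = 8.73e-30). LOC103411284 stood at 67.3, 67.2 and 71.8 FPKM with SL and at 0.376, 0.236 and 0 FPKM without (5.87 ± 0.347, limma adjusted p = 1.92e-14). Both groups of libraries lay far apart in these genes.

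Among the named genes, ANR2a rose by 1.30 ± 0.122 (adjusted p = 3.44e-10), LOX7a by 2.30 ± 0.0876 (9.88e-19), LOX7c by 3.64 ± 0.153 (9.10e-18) and MADS20 by 1.30 ± 0.149 (1.53e-08) in limma. MYB11 was higher too, at 0.718, 0.571 and 0.543 FPKM with SL while listed at 0 in all 3 libraries without it (adjusted p = 1.95e-06). MdCHS fell at T1, to 0.320, 0.263 and 0.219 FPKM with SL, against 1.10, 1.56 and 1.21 FPKM without (-0.85 ± 0.104, adjusted p = 4.62e-08). LOC103433222 was also lower, at 3.93 ± 0.218 FPKM with SL against 7.68 ± 0.304 without (-0.82 ± 0.0745, adjusted p = 1.86e-10). ANS, MYBPA1 and MYB9 did not pass the test, and ANS was listed at 0 in all 6 libraries.

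Over all genes 26.4% were higher and 35.3% lower with SL in this comparison. Of the 28 tested MYB genes 13 were higher and 11 lower, and of 13 lipoxygenases 9 were higher and 3 lower. Of the 15 listed flavonoid genes 3 were higher and 6 lower, which is close to the shares over all genes. Of the 7 that are neither members nor set aside, 1 was higher and 2 lower. The risen genes included DFR (2.59, limma adjusted p = 2.35e-17), at 5.05 ± 0.593 FPKM with SL and listed at 0 without. The fallen genes included CHS-2 (-0.60, adjusted p = 2.37e-06), CHS1 (-0.46, adjusted p = 0.00377) and MdF3H (-0.54, adjusted p = 5.09e-10).

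Low oxygen was then set against RA at matched time and SL state. With SL at T1, 70 of the 99 genes were lower and 4 higher in ULO than in RA, against 26% and 24% of all genes, with a median of -1.30 (0 over all genes). In DCA_CF 64 were lower and 7 higher, against 16.7% and 29.5% of all genes, with a median of -0.75 (0.09 over all genes). Eligible genes were lower in 33.3% and higher in 29.6% for ULO, and lower in 22.9% and higher in 35.5% for DCA_CF. Of the 90 genes, 70 were lower and 3 higher in ULO and 64 lower and 6 higher in DCA_CF. Both comparisons use the same T1 RA libraries with SL, so they are not independent.

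LOC108170929 was the gene most reduced in ULO. It stood at 0, 0.0837 and 0 FPKM in T1 ULO with SL and at 0.178, 0.476 and 0.145 FPKM in T1 DCA_CF with SL, against 43.8, 42.7 and 44.2 FPKM in T1 RA with SL. The differences were -5.44 ± 0.117 for ULO (limma adjusted p = 1.52e-24) and -5.15 ± 0.117 for DCA_CF (2.03e-23). LOX7a stood at 0.147, 0.215 and 0.262 FPKM in T1 ULO with SL and at 1.66, 1.74 and 1.96 FPKM in T1 DCA_CF with SL, below all libraries of T1 RA with SL (ULO: -5.07 ± 0.0876, adjusted p = 1.04e-26).

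LOC103423157 behaved in a like way: T1 DCA_CF with SL had 0, 0 and 0.703 FPKM, against 26.1, 25.4 and 25.0 FPKM in T1 RA with SL (-4.47 ± 0.121, limma adjusted p = 9.94e-22). ANR2a was lower in ULO by less (-0.98 ± 0.122, adjusted p = 9.23e-08), at 18.9, 19.6 and 21.1 FPKM. A few genes went the other way. LOC103432919 was higher in T1 ULO with SL than in T1 RA with SL, at 2.57, 4.45 and 3.83 FPKM against 1.45, 0.884 and 1.26 FPKM (1.06 ± 0.138, adjusted p = 2.02e-07). LOC103414345 was higher in both regimes, by 0.83 ± 0.0705 in ULO (5.52e-11) and 1.28 ± 0.0705 in DCA_CF (9.49e-15), and LOC103452179, a near copy of it, by 1.20 ± 0.0764 in DCA_CF (2.14e-13).

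Without SL at T1, 51 genes were lower and 14 higher in ULO than in RA, against 30.4% and 32% of all genes, and 49 were lower and 17 higher in DCA_CF, against 36.1% and 31.8%. For eligible genes the shares were 36% lower and 39.1% higher in ULO, and 41.8% lower and 38.3% higher in DCA_CF. The medians over the 99 genes were -0.56 in ULO and -0.46 in DCA_CF. Of the 90 genes, 50 were lower and 14 higher in ULO and 48 lower and 17 higher in DCA_CF. LOC103415288 stood at 0.065, 0.226 and 0.143 FPKM in T1 ULO and at 0.0743, 0 and 0.153 FPKM in T1 DCA_CF, against 48.8, 52.2 and 51.4 FPKM in T1 RA (ULO: -5.50 ± 0.0621, limma adjusted p = 6.74e-31). LOC103411164 stood at 0.413, 1.22 and 0.342 FPKM in T1 ULO, against 53.9, 48.6 and 52.4 FPKM in T1 RA (-5.02 ± 0.119, adjusted p = 1.11e-23). LOC103418775 rose instead, to 17.6, 16.4 and 16.8 FPKM in T1 ULO, against 1.73, 1.86 and 1.08 FPKM in T1 RA (2.82 ± 0.0989, adjusted p = 9.91e-20), with a like difference in DCA_CF (2.90 ± 0.0989, adjusted p = 4.42e-20). LOC103415011 was higher in ULO as well (2.08 ± 0.0693, adjusted p = 3.29e-20), and LOC103432255 in DCA_CF (2.55 ± 0.0753, adjusted p = 1.62e-21). LOC103403717 was listed at 0 in all 3 libraries of T1 DCA_CF and at 68.0 ± 5.14 FPKM in T1 RA (-6.11 ± 2.27, limma adjusted p = 0.0194). Its large standard error goes with uneven replicates: in 7 of the 12 groups it had a library at 0 beside one of at least 10 FPKM, so its zeros may be failed estimates.

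At T2 without SL the median over all genes lay above 0, at 0.20 for ULO and 0.24 for DCA_CF against RA. The 99 genes lay below, with medians of -0.68 and -0.42. In ULO 55 were lower and 17 higher, against 25.4% and 43.1% of all genes, and in DCA_CF 48 were lower and 17 higher, against 24.3% and 45.1%. The eligible genes gave 28.7% lower and 51.5% higher in ULO, and 27.9% lower and 52.4% higher in DCA_CF. Of the 90 genes, 55 were lower and 14 higher in ULO and 48 lower and 16 higher in DCA_CF. LOC103423157 was listed at 0 in all 6 low oxygen libraries and stood at 32.4, 32.2 and 28.9 FPKM in T2 RA (limma adjusted p = 1.25e-23 for ULO and 1.23e-23 for DCA_CF). LOC103428350 stood at 0, 0.0974 and 0.0490 FPKM in T2 ULO, against 21.6, 21.3 and 21.4 FPKM in T2 RA (-4.42 ± 0.0928, adjusted p = 5.01e-25). LOC103415288 was lower by 4.72 in DCA_CF (-4.72 ± 0.0621, adjusted p = 1.13e-29).

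MYB11 was the gene that rose most in T2 ULO, at 2.55, 2.96 and 3.43 FPKM against 0, 0.183 and 0.246 FPKM in T2 RA (1.80 ± 0.105, limma adjusted p = 8.27e-15). LOC103432255 stood at 40.8, 43.1 and 39.9 FPKM in T2 ULO and 208, 201 and 228 FPKM in T2 DCA_CF, against 13.1, 10.7 and 12.2 FPKM in T2 RA (ULO: 1.70 ± 0.0753, adjusted p = 1.65e-17; DCA_CF: 4.03 ± 0.0753, 3.20e-26). LOC103409404 was higher in DCA_CF (3.62 ± 0.116, adjusted p = 8.72e-21). So the low oxygen regimes differed from RA in both directions among these genes, with more lower than higher in each of the 6 comparisons.

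MYB9 and ANR2a were lower in low oxygen without SL at both times. MYB9 had 0 FPKM in all libraries of T1 ULO and of T1 DCA_CF, against 0.501, 0.813 and 0.860 FPKM in T1 RA (-0.78 ± 0.125 in both regimes, limma adjusted p = 3.84e-06 and 3.30e-06), a difference at a low level. ANR2a had 3.32, 3.48 and 3.47 FPKM in T1 ULO and 1.29, 2.65 and 0.953 FPKM in T1 DCA_CF, below all libraries of T1 RA (-1.92 ± 0.122, adjusted p = 7.15e-14, and -2.72 ± 0.122, 2.32e-17). At T2 ANR2a was lower by less (-0.68 ± 0.122, adjusted p = 1.73e-05, in ULO and -0.83 ± 0.122, 8.32e-07, in DCA_CF).

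**Figure D3:**
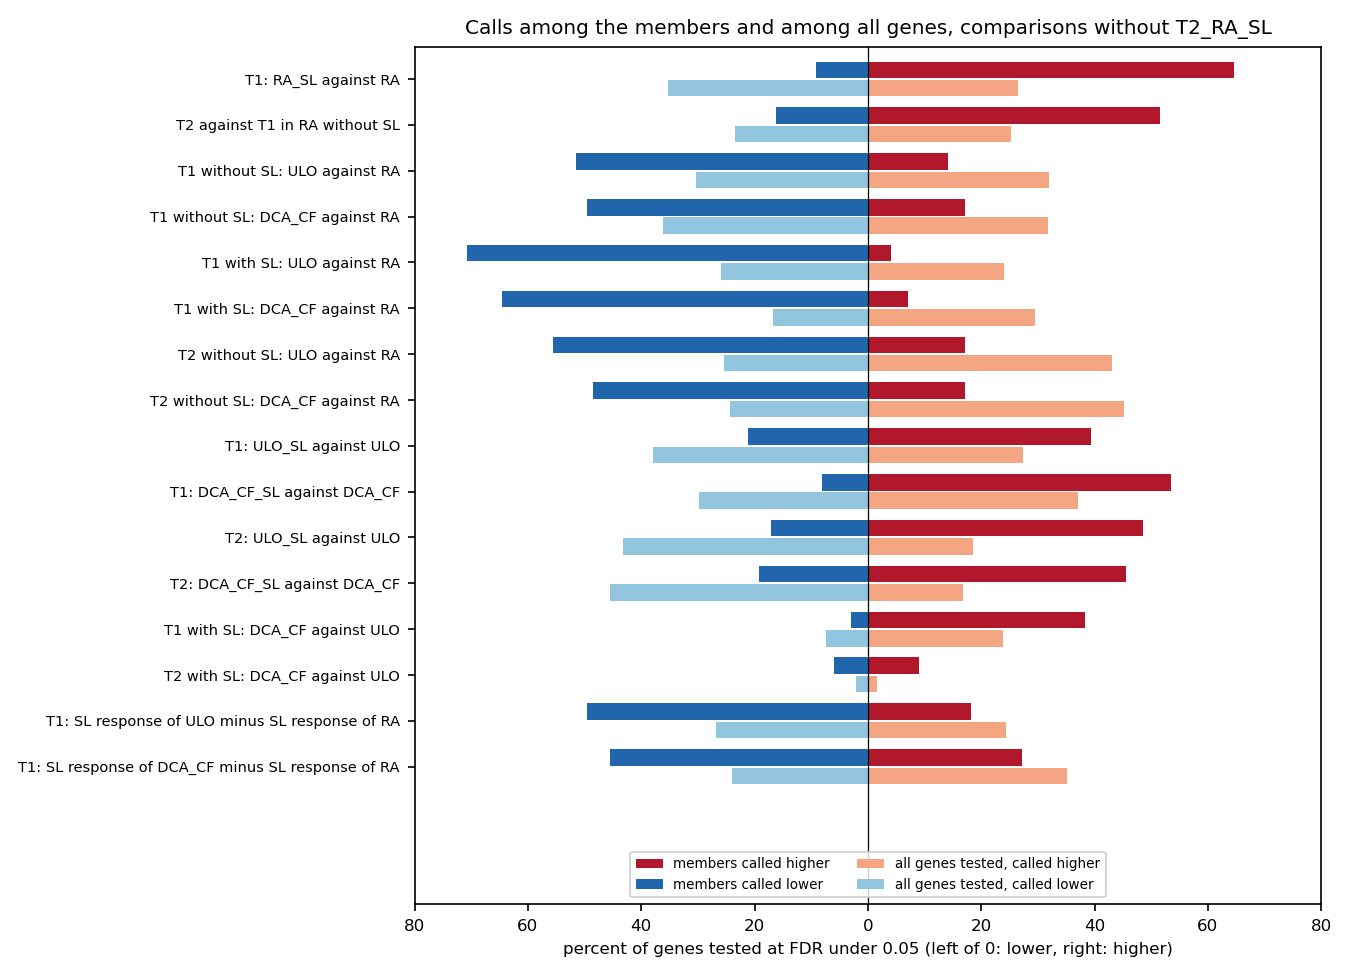
Percent of genes called higher (right of 0) and lower (left of 0) at an adjusted p under 0.05 in each comparison without T2 RA with SL, for the 99 genes (dark bars) and all 32923 genes (pale bars). In all 6 comparisons of low oxygen with RA the dark bars lean left, and in all 5 comparisons with and without SL they lean right; comparisons that share a group are not independent.

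SL was also compared within low oxygen. In ULO at T1 39 genes were higher and 21 lower with SL, against 27.3% and 37.9% of all genes. In DCA_CF at T1 53 were higher and 8 lower, against 37% and 29.8%. In ULO at T2 48 were higher and 17 lower, against 18.6% and 43.2%, with a median of 0.47 and of -0.21 over all genes. In DCA_CF at T2 45 were higher and 19 lower, against 16.7% and 45.5%, with a median of 0.24 and of -0.24 over all genes. At T1 34.6% of eligible genes were higher and 43.5% lower in ULO, and 44.6% higher and 35% lower in DCA_CF. At T2 24.3% of them were higher and 50.3% lower in ULO, and 22.6% higher and 52.4% lower in DCA_CF. Over the 90 genes the counts were 39 higher and 21 lower in ULO at T1, 52 and 8 in DCA_CF at T1, 48 and 14 in ULO at T2, and 45 and 18 in DCA_CF at T2.

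These 4 comparisons and that in RA at T1 share no library. In all 5, 14 of the 99 genes were higher with SL, against 5.52% of all genes. A share over eligible genes, which were called more often in each comparison, is not given for this count. All 14 are among the 90. ANR2a is the named gene among them: in low oxygen it rose by 2.24 ± 0.122 in ULO (limma adjusted p = 2.24e-15) and 2.78 ± 0.122 in DCA_CF (1.65e-17) at T1, and by 0.98 ± 0.122 (7.27e-08) and 1.07 ± 0.122 (1.25e-08) at T2. LOC103442189 had the highest level of all 100 genes. It stood at 735, 643 and 657 FPKM in T2 RA with SL, at 404, 401 and 403 FPKM in T1 RA with SL and at 97.5, 97.3 and 118 FPKM in T1 RA (1.95 ± 0.0705 between the T1 groups, adjusted p = 3.22e-19). In ULO at T2 it stood at 286, 330 and 293 FPKM with SL, against 84.4, 84.8 and 82.5 FPKM without (1.84 ± 0.0705, adjusted p = 1.37e-18). LOC103415288 and LOC103411164 are also among the 14. LOC103415288 was higher by 2.96 ± 0.0621 with SL in DCA_CF at T2 (adjusted p = 1.22e-24), and LOC103411164 by 3.37 ± 0.119 in ULO at T1 (1.09e-19).

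LOC103432255, LOC103411163 and LOC103411284 were not higher with SL in all 5. LOC103432255 stood at 145, 151 and 155 FPKM in T1 ULO with SL, against 5.76, 4.36 and 5.19 FPKM without (4.64 ± 0.0753, limma adjusted p = 2.11e-27). At T2 in DCA_CF it was lower with SL, at 76.6, 72.4 and 76.4 FPKM against 208, 201 and 228 FPKM (-1.48 ± 0.0753, adjusted p = 6.58e-16). LOC103411163 stood at 127, 129 and 125 FPKM in T2 ULO with SL, against 13.9, 12.7 and 13.4 FPKM without (3.16 ± 0.0474, adjusted p = 7.53e-28). LOC103411284 was higher by 4.41 ± 0.347 in DCA_CF at T1 (7.23e-12).

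LOC103411336, whose values include zeros beside high replicates, stood at 24.6, 24.9 and 24.2 FPKM with SL in DCA_CF at T1 and was listed at 0 without (adjusted p = 6.87e-05 in limma). In DCA_CF at T2 it was at 40.0, 39.8 and 39.5 FPKM with SL and at 0, 0 and 7.92 FPKM without (4.30 ± 0.927, adjusted p = 0.000212). LOC103412853 averaged 4.86 ± 0.340 FPKM with SL in ULO at T2 and was listed at 0 without (adjusted p = 2.90e-06).

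MdCHS was lower with SL in both low oxygen regimes at T2, while ANR2a was higher in both. MdCHS stood at 0.207, 0.330 and 0.272 FPKM in T2 ULO with SL, against 0.675, 0.998 and 0.470 FPKM without (-0.42 ± 0.104, limma adjusted p = 0.000844), and was lower in DCA_CF as well (-0.56 ± 0.104, 2.88e-05). Of the 15 listed flavonoid genes, 10 were lower and 1, ANR2a, higher in ULO, and 9 were lower and 2 higher in DCA_CF, while 43.2% of all genes were lower and 18.6% higher in ULO and 45.5% lower and 16.7% higher in DCA_CF. Those 15 include the members and the genes set aside, which were picked for the peak. Of the 7 others, 3 were lower and none higher in ULO, and 3 lower and 1 higher in DCA_CF, near the shares of lower genes overall in the table. MdCHS and ANS were under 1 FPKM in all these libraries, so calls on them are at a level near 0. All 5 genes set aside by the rule were lower in both, from -3.30 for CHS-2 (adjusted p = 1.10e-21) to -0.96 for F3H (3.66e-16) in ULO, and from -2.54 for CHS-2 (3.76e-19) to -1.63 for CHS1 (1.58e-11) in DCA_CF.

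MYB11 went down too, to 0.320, 0.375 and 0.146 FPKM in T2 ULO with SL (-1.63 ± 0.105, limma adjusted p = 1.19e-13) and to 0.0901, 0.0994 and 0 FPKM in T2 DCA_CF with SL, against 1.90, 1.70 and 1.56 FPKM without (-1.36 ± 0.105, 5.89e-12). LOC103455413 was lower by 1.39 in ULO (-1.39 ± 0.108, adjusted p = 7.75e-12). In DCA_CF LOC103442962 averaged 2.88 ± 0.514 FPKM with SL against 19.0 ± 0.123 without (-2.37 ± 0.0825, adjusted p = 1.25e-19), and LOC103425043 averaged 4.01 ± 0.259 against 21.0 ± 0.207 (-2.14 ± 0.0794, 5.76e-19). At T1 the lower genes included LOC103455518, at 0.0393 ± 0.0681 FPKM in ULO with SL against 6.86 ± 0.0837 without (-2.92 ± 0.138, adjusted p = 8.34e-17). In DCA_CF at T1 LOC103452179 was lower by 1.12 (-1.12 ± 0.0764, 3.08e-13) and its near copy LOC103414345 by 1.10 (-1.10 ± 0.0705, 9.37e-14).

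Whether the SL response itself differed between low oxygen and RA was tested at T1 as a difference of differences. For ULO minus RA 49 genes had a lower and 18 a higher response, against 26.8% and 24.4% of all genes, with a median of -0.65. For DCA_CF minus RA 45 had a lower and 27 a higher response, against 23.9% and 35.1%, with a median of -0.28 and of 0.12 over all genes. The shares of eligible genes were 35.4% lower and 29.2% higher for ULO, and 31.8% lower and 40.5% higher for DCA_CF. Over the 90 genes the counts were 49 lower and 18 higher for ULO and 45 lower and 26 higher for DCA_CF. Both tests use the same RA libraries.

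LOC108170929 responded to SL far more in RA than in low oxygen. It stood at 43.8, 42.7 and 44.2 FPKM in T1 RA with SL, against 0.717, 0.621 and 0.654 FPKM without, and no low oxygen library of T1 exceeded 0.476 FPKM (difference of the responses -5.03 ± 0.165 for ULO, limma adjusted p = 6.92e-20, and -4.61 ± 0.165 for DCA_CF, 2.79e-19). LOX7a rose with SL in RA and fell with SL in ULO, to 0.147, 0.215 and 0.262 FPKM with SL against 2.70, 2.62 and 2.75 FPKM without (difference -3.91 ± 0.124, adjusted p = 3.22e-20). LOX7c differed in the same direction (-3.99 ± 0.216, 5.47e-15, and -3.50 ± 0.216, 6.36e-14).

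LOC103422717 stood at 22.5, 24.1 and 24.9 FPKM in T1 RA with SL and was listed at 0 in all libraries of T1 RA without SL and of T1 ULO with SL (adjusted p of the difference 4.60e-10 in limma). Other genes responded more in low oxygen. LOC103411163 stood at 69.8, 72.3 and 69.8 FPKM in T1 ULO with SL against 6.93, 6.20 and 7.75 FPKM without, while in T1 RA it stood at 94.0, 90.9 and 92.7 FPKM with SL and at 116, 115 and 121 FPKM without (difference 3.52 ± 0.0670, limma adjusted p = 5.85e-25). ANR2a also responded more in low oxygen, by 0.94 ± 0.172 in ULO (adjusted p = 3.92e-05) and 1.49 ± 0.172 in DCA_CF (2.15e-08).

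**Figure D4:**
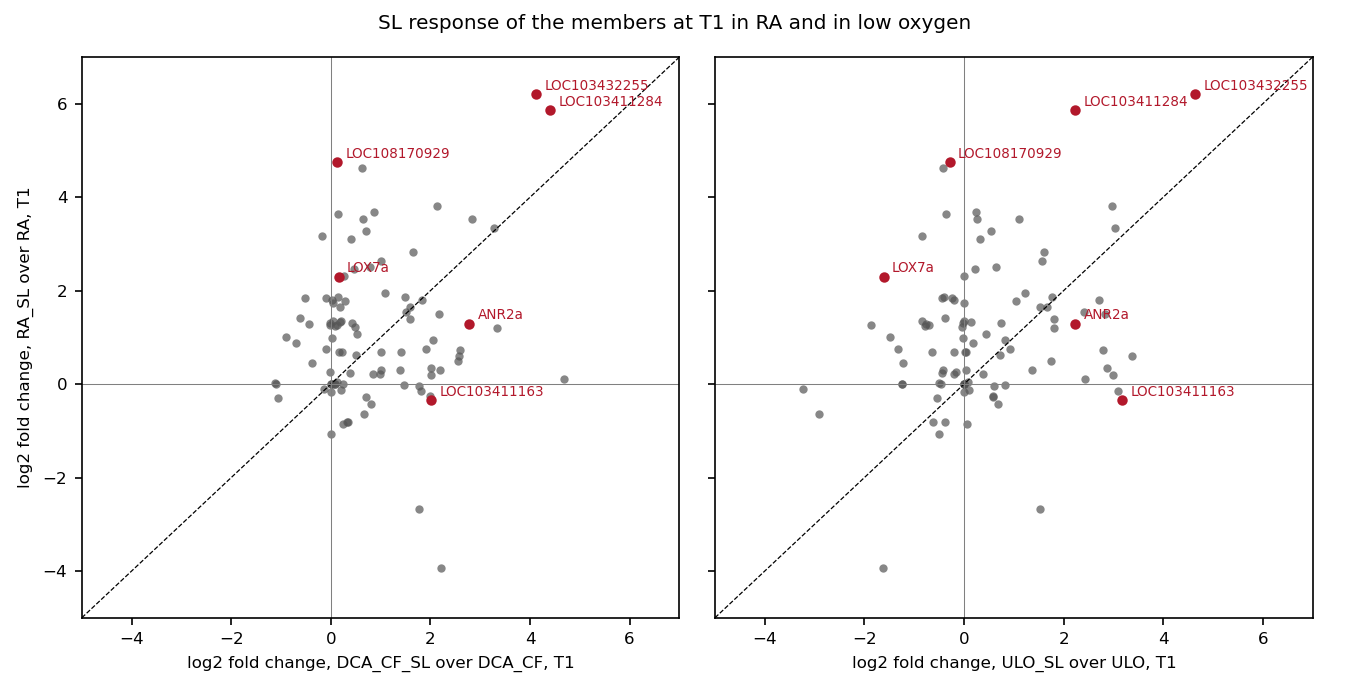
log2 fold change with over without SL at T1 in RA (vertical axis) against that in DCA_CF (left) and ULO (right, horizontal axis); each point is 1 of the 99 genes, and the dashed line marks equal responses. LOC108170929 and LOX7a lie far above the line, with 4.74 and 2.30 in RA, and LOC103411163 below it, with -0.34 in RA against 2.01 in DCA_CF and 3.17 in ULO.

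The change with time was tested in RA without SL only, and time within the low oxygen regimes was not tested. In T2 RA against T1 RA 51 genes were higher and 16 lower, against 25.2% and 23.4% of all genes, with a median of 0.36 (0.00 over all genes). Among eligible genes 34.9% were higher and 28.7% lower. Of the 90 genes, 51 were higher and 16 lower. LOC103422717 stood at 13.8, 10.6 and 13.2 FPKM at T2 and was listed at 0 in all 3 libraries at T1 (limma adjusted p = 2.14e-10). LOC103432255 stood at 13.1, 10.7 and 12.2 FPKM at T2, against 1.21, 1.01 and 1.02 FPKM at T1 (2.64 ± 0.0753, adjusted p = 4.76e-21). LOX7a rose by 1.74 ± 0.0876 (1.42e-15) and LOX7c by 1.70 ± 0.153 (2.82e-10), and LOC108170929 rose to 8.96, 8.43 and 9.56 FPKM (2.58 ± 0.117, 1.22e-16).

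Other genes fell with time. LOC103411163 stood at 21.8, 22.1 and 21.6 FPKM at T2, against 116, 115 and 121 FPKM at T1 (-2.38 ± 0.0474, limma adjusted p = 1.96e-24). LOC103442258 stood at 0.782, 0.653 and 1.09 FPKM at T2, against 7.81, 8.67 and 9.17 FPKM at T1 (-2.38 ± 0.429, adjusted p = 3.65e-05). MdCHS fell by 0.43 (-0.43 ± 0.104, adjusted p = 0.00105) and MADS20 by 0.64 (-0.64 ± 0.149, 0.000793).

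The low oxygen regimes were close to each other with SL at T2, where 9 genes were higher and 6 lower in DCA_CF than in ULO, against 1.59% and 2.1% of all genes. MADS20 was higher, at 5.51, 5.42 and 5.22 FPKM in T2 DCA_CF with SL against 3.32, 2.43 and 3.02 FPKM in T2 ULO with SL (0.71 ± 0.149, limma adjusted p = 0.00425). LOC103411633 was higher by 0.75 ± 0.203 (adjusted p = 0.0336). LOC103434230 averaged 1.44 ± 0.174 FPKM in DCA_CF against 4.82 ± 0.207 in ULO (-1.26 ± 0.113, adjusted p = 1.86e-08), and LOC103448747 averaged 1.71 ± 0.491 against 4.90 ± 0.654 (-1.13 ± 0.124, 5.80e-07). In a fit of the 6 compared libraries alone only 4 genes were higher and 1 lower, and MADS20, LOC103411633 and LOC103448747 were not among them. At T1 with SL 38 genes were higher and 3 lower in DCA_CF, against 23.9% and 7.4%. Among eligible genes 30.9% were higher and 11.7% lower at T1, and 2.4% higher and 3.73% lower at T2. The 90 genes gave the same counts in both comparisons. LOC103411284 stood at 21.6, 23.7 and 23.6 FPKM in T1 DCA_CF with SL against 3.71, 4.16 and 4.03 FPKM in T1 ULO with SL (2.27 ± 0.347, adjusted p = 6.21e-06), and LOC103455518 was higher by 2.12 ± 0.138 (4.63e-13). The lower genes LOC103442189 (-0.32 ± 0.0705, 0.000769) and LOC103439978 (-0.30 ± 0.0646, 0.000534) differed by little.

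Some of the 100 genes lie next to each other in the RefSeq annotation of apple, and this was not used by the rule. LOC103411164, LOC103442256, LOC103411163 and LOC103442258 form a run with at most 1 other annotated gene between neighbours. In T2 RA with SL LOC103411164 averaged 324, LOC103442256 243, LOC103411163 411 and LOC103442258 31.2 FPKM. Over the 33 other libraries their log2 levels correlated pairwise at 0.70 to 0.95, with a median of 0.86, while pairs among 90 members had a median of 0.30 and ran from -0.87 to 1.00. The libraries of a group share their treatment, so these correlations describe the pattern over groups. Each of the 4 was lowest in T1 ULO, and none stood higher at T2 than at T1 in RA without SL. Their next highest group differed. It was T1 RA with SL for LOC103411164, T2 DCA_CF with SL for LOC103442256 and LOC103411163, and T1 RA for LOC103442258.

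LOX7c lies directly next to LOC108170929, with a correlation of 0.96 over the 33 libraries. Both had their next levels in T1 RA with SL and then in T2 RA. LOC103427139, LOC103418775 and LOC103419638 lie within a short stretch, with 3 and 2 annotated genes between them and correlations of 0.54 to 0.63. LOC103423272 and LOC103430283 have 2 genes between them, one of which, LOC103423273, is no member, at 65.4 FPKM in T2 RA with SL against 69.3 FPKM in T1 RA with SL. MdCHS lies directly next to CHS-2, and 2 annotated genes separate it from CHS1. One of these, LOC108171838, did not exceed a group mean of 0.660 FPKM, so the high level was not shared by every gene of that stretch.

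**Figure D5:**
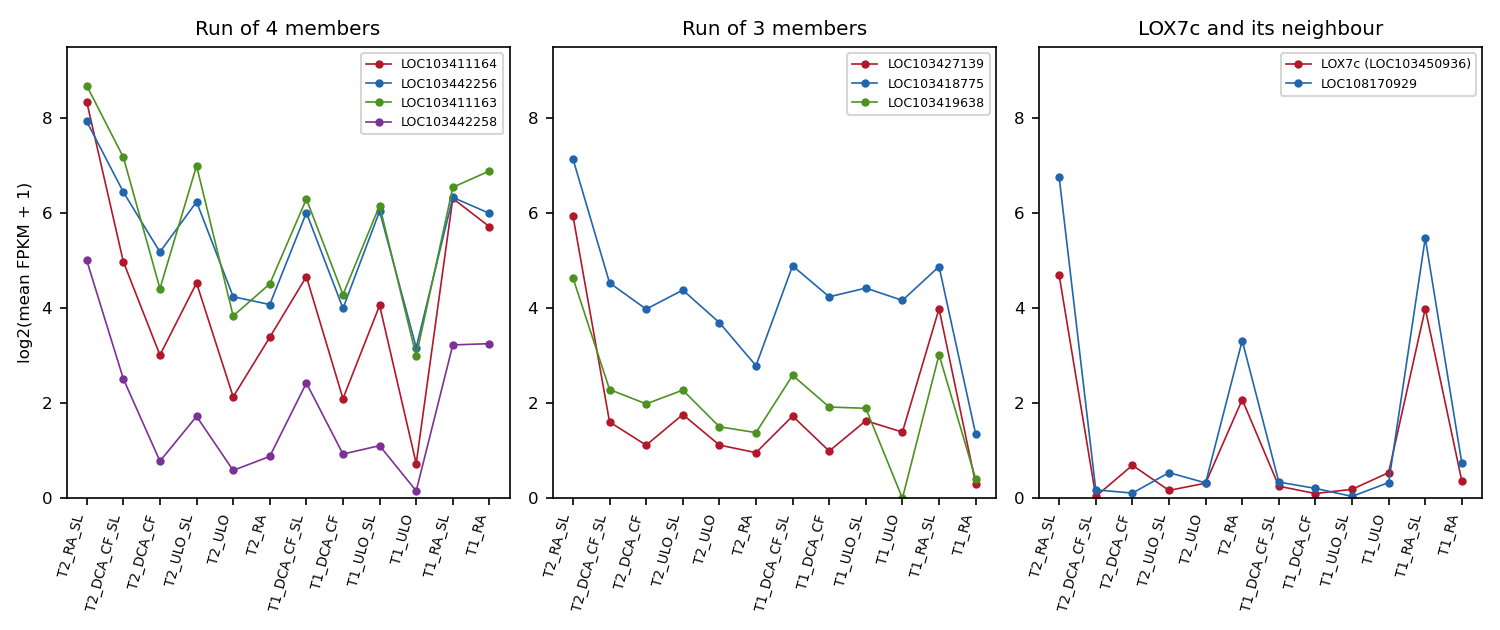
log2(mean FPKM + 1) over 3 libraries by group for the run of 4 genes, the run of 3 genes, and LOX7c with its neighbour; lines join the groups of a gene for reading only. The run of 4 has T1 ULO as its lowest group, and LOX7c and LOC108170929 stand above 2 on this scale only in T2 RA with SL, T1 RA with SL and T2 RA.

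Copies limit the count of independent genes. Besides LOC103406362 and LOC103435578, the pairs LOC103402745 and LOC103425441, LOC103452179 and LOC103414345, and LOC103405875 and LOC103426211 had correlations of at least 0.99 and a median difference of at most 0.1 on the log2 scale. In each of the 4 pairs 1 gene is not in the RefSeq table, and how reads of the pair were shared is not known. LOC103402745, for example, stood at 323, 276 and 290 FPKM in T2 RA with SL and at 61.5, 63.4 and 73.5 FPKM in T1 RA with SL. The chalcone synthases are a family of close copies as well, so levels of single CHS genes are uncertain.

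In 5 genes the coefficient of variation within T2 RA with SL exceeded 30%. LOC103448829 was listed at 0, 165 and 0 FPKM in its libraries and LOC103420141 at 0, 0.137 and 53.2 FPKM, so that 1 library placed each in the list. LOC103405649 was listed at 0, 35.0 and 31.0 FPKM and LOC103453161 at 28.6, 44.2 and 0 FPKM. LOC103452242 stood at 9.59, 23.9 and 13.3 FPKM. In all, 11 of the 100 genes had a library at 0 beside a replicate of at least 10 FPKM, and a value of 0 may be a failed estimate there. The share was smaller over the whole table, at 952 of 57423 genes, though most of those had no group mean of 10 FPKM.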

How the data were processed

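Total RNA of peel was made into non-directional libraries and read on an Illumina HiSeq, per the labels' protocols. HISAT2, StringTie and DESeq2 are listed without versions in the submitters' processing notes, and a genome build is not given in the sources used here. The table deposited by the authors is named for counts, but its values are not whole and were read as FPKM; TPM with genes left out cannot be told apart from them. Columns headed DCA were matched to the DCA_CF samples by time, SL tag and letter. Reads of antisense transcripts and of close family members can be shared between genes, and read depth is unknown.

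FPKM values were not scaled further. log2(FPKM + 1), which understates changes of low genes, was fitted with limma 3.58.1 in R 4.3.3, with 1 mean per group over 36 libraries and moderated variances that follow the mean. The 14 comparisons of groups and 2 differences of the SL response exclude T2 RA with SL, although its libraries share in the estimate of spread. The fit was first tested on simulated data in which the changes were known.

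Members and lists were chosen with earlier results of these data known, and the lipoxygenases were grouped after the members were seen. The flavonoid and MYB lists were matched by symbol or synonym. Lists for other families fixed beside them were not used, because 91 members carry no name. Named are the 12 genes of largest lead, all genes with a symbol, the 5 set aside and those at the end of the list. Each comparison of groups adds up to 2 called genes per direction, with the largest change and no overlap between groups. For the 2 differences of the SL response, overlap was not checked. Genes repeated beyond the comparison that named them, and those in sentences on copies, neighbours and uneven replicates, were chosen after their values were seen. The RefSeq gene table of apple (assembly GDT2T_hap1) served only for symbols, gene type and gene order.

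Alternatives were a pseudocount of 0.1, RLE and upper quartile scaling, scaling to a total of 1000000, no filter, compared libraries alone, the replicate letter as a block and each library left out.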

Additional observations from a re-analysis of the deposited data

Results flagged for a closer look

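The SL response at T1 was compared between low oxygen and RA by the test of the difference itself in limma, and many genes of the table differed. For ULO minus RA 18 of the 99 genes had a higher and 49 a lower response, against 24.4% and 26.8% of all genes. For DCA_CF minus RA 27 had a higher and 45 a lower one, against 35.1% and 23.9% of all genes. For eligible genes the shares were 29.2% higher and 35.4% lower for ULO, and 40.5% higher and 31.8% lower for DCA_CF. Both differences use the same libraries of T1 RA.

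In ULO minus RA the differences that lay farthest above 0 by the rule for named genes were 3.52 for LOC103411163 and 3.24 for LOC103442761. Farthest below 0 were -5.07 for LOC103422717 and -5.03 for LOC108170929. In DCA_CF minus RA they were 4.56 for LOC103411336 and 2.35 for LOC103411163 above 0, and -4.61 for LOC108170929 and -4.01 for LOC103422717 below 0. All are log2 values with a limma adjusted p between 5.85e-25 and 0.00385. LOC103422717 was listed at 0 in all 3 libraries of T1 RA and LOC103411336 in all 3 of T1 DCA_CF, both without SL, so their sizes depend on the pseudocount.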

How the results depend on the processing

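Of 472 recomputed counts of called genes, 467 lay within 1.5 times the reported count, and no result reversed. The exceptions were in DCA_CF against ULO with SL. At T1 the 3 lower genes became 6 with RLE size factors and 9 with upper quartile scaling. At T2 the 9 higher genes became 5 with a pseudocount of 0.1 and 4 in a fit of the compared libraries only, where the 6 lower genes became 1. The cause was not tested. Counting only the 90 genes that pass the filter on the other 33 libraries, a choice made after seeing the data, moved no count by over 1.5 times. With each library left out in turn, the higher genes in T1 RA with SL against RA numbered 61 to 65 and the lower genes in T1 ULO against RA with SL 67 to 69. Of 1896 values of single genes, 57 no longer passed the threshold. The replicate block gave 64 higher genes in T1 RA with SL against RA and 49 genes with a lower SL response in ULO than in RA at T1, as in the fit without it. Residuals correlated at 0.0029 on average between libraries of the same letter in different groups and at -0.0015 otherwise, so the letters give no pairing. Of the 100 genes, 88 to 96 remained in the list under other pseudocounts, scalings or medians, and 86 to 89 when 1 library of T2 RA with SL was left out. Read depth is unknown, so the precision of low values cannot be given.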
